A study of Mus musculus with 26 samples.

Results

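The genes of creatine and calcium cycling were examined in subcutaneous inguinal white adipose tissue of 26 mice, with 1 one-colour array per mouse. The members were 9 genes, taken by gene name from the array annotation. Creatine cycling was represented by Ckb, Ckmt1, Ckmt2, Gatm, Gamt, Slc6a8 and Alpl, and calcium cycling by Atp2a2 and Ryr2. They had 18 probes, of which 15 passed the filter on dim probes, and all 9 genes kept at least 1 probe. The whole array had 38832 tested probes with 25407 gene names.

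Both mouse lines carried mutations of Mlxipl, which encodes ChREBP, a transcription factor activated by glucose metabolites. Total ChREBP KO mice (n = 7) were Mlxipl-null and lacked the α and β isoforms. ChREBPβ KO mice (n = 5) carried a CRISPR/Cas9 deletion of the first exon of the shorter β isoform, so the α isoform remained. The controls were WT mice of the total line (n = 7) and WT mice of the ChREBPβ line (n = 7), which the methods describe as littermates for the ChREBPβ line alone, and per the methods of the study the mice were C57BL6/J males. Every group had been fasted for 24 h and refed for 18 h with food and with 20% glucose in the water, so no group shows the fasted state. Age was not given for the array mice in the sources used here. Both KOs affected all tissues.

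Creatine and calcium cycling are heat-producing routes of adipocytes that do not need Ucp1, the proton carrier of brown and beige fat mitochondria. In the creatine cycle, creatine is made by Gatm and Gamt, taken up through Slc6a8 and phosphorylated by creatine kinases, and phosphocreatine is then hydrolysed without useful work, which releases heat. In the calcium cycle, the SERCA pump encoded by Atp2a2 moves calcium into the endoplasmic reticulum at the cost of ATP, and the ion leaks back through channels such as Ryr2. Several of these genes are also expressed in muscle, where their proteins buffer ATP or move calcium.

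All values are log2 intensities after quantile normalization, and SD is between arrays. Arrays had median spot signals of 59 to 108 over median backgrounds of 15 to 23, and no spot was saturated. The targeted gene was read by 3 Mlxipl probes, of which the brightest separated KO from WT in both lines. On that probe, total KO arrays were between 13.63 and 14.00 and their WT arrays between 15.62 and 16.59, while ChREBPβ KO arrays were between 13.94 and 14.38 and their WT arrays between 15.29 and 16.18. Probe A_55_P2728555 also fell in total KO (-0.91, limma adjusted p = 2.3e-06) but did not pass in ChREBPβ KO (-0.68, adjusted p = 0.058). Probe A_55_P2045158 was not called in total KO (-0.14, adjusted p = 0.14) or in ChREBPβ KO (0.041, adjusted p = 0.97), and its KO and WT ranges overlapped in both lines. Ucp1 was between 12.57 and 16.55 in WT of the total line and between 7.38 and 10.10 in total KO, a difference of -6.85 (SE 0.75, limma adjusted p = 8.1e-08). It was between 6.51 and 11.58 in WT of the ChREBPβ line, below all WT arrays of the total line, and was 8.63, 5.67, 6.09, 7.75 and 7.22 in the ChREBPβ KO. Adipocyte markers were bright in every group: the mean of the 10 adipocyte genes, Adipoq, Plin1 and Fabp4 among them, lay between 15.29 and 16.30 over all arrays.

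In total ChREBP KO, 4 of the 9 members passed the threshold of an adjusted p of 0.05. Ckb, Gamt and Atp2a2 rose and Ryr2 fell. The Ryr2 probe had passed the filter on dim probes through the groups where it was brighter and not over all arrays, and without that filter its adjusted p was 0.053. Across the array, 45.9% of gene names were called in this comparison, so the members' count was close to the background. The median change of the members was 0.32, against 0.05 over all gene names. In ChREBPβ KO, 0 of the 9 members passed by limma, and 0 did so on their brightest probe at an unadjusted p of 0.05. The background there was 0.0472%, or 12 gene names, for the adjusted p, and 1970 of 25407 gene names for the unadjusted p.

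**Figure D1:**
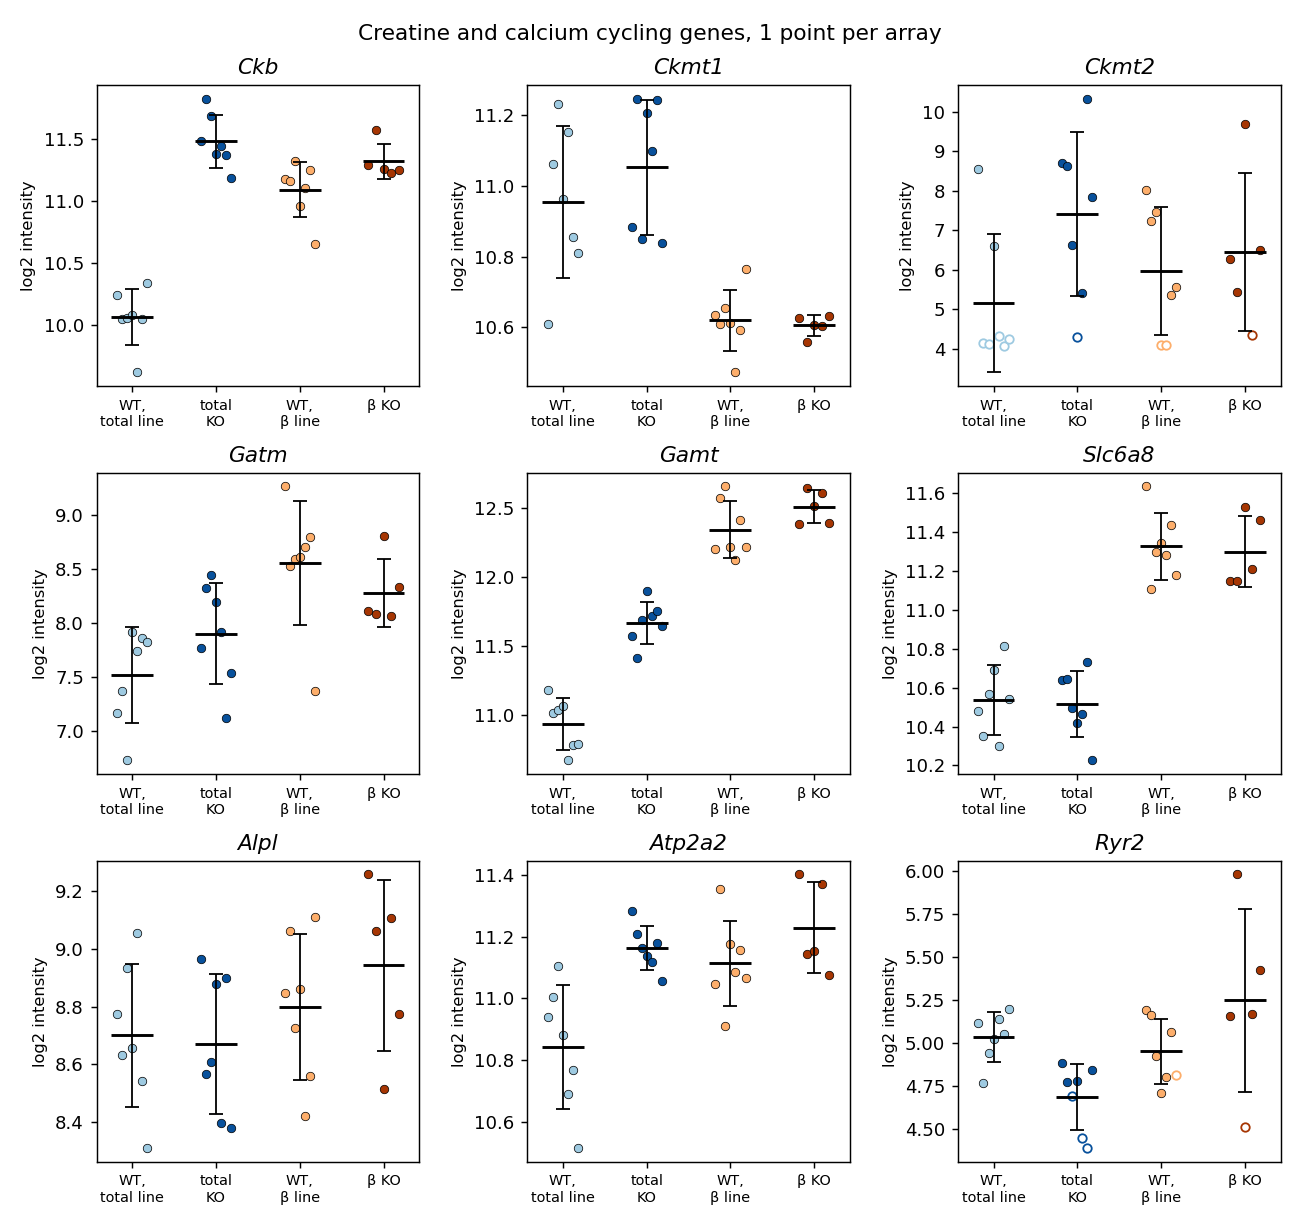
Normalized log2 intensity of each member on its brightest probe, with 1 point per array, for WT of the total line, total ChREBP KO, WT of the ChREBPβ line and ChREBPβ KO. Bars are mean ± SD and open points are spots not well above background. All total KO arrays lie above all WT arrays of that line for Ckb and Gamt, and Slc6a8 separates the 2 lines but not the genotypes.

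Ckb encodes the cytosolic brain-type creatine kinase, the isoform that phosphorylates creatine in thermogenic adipocytes. Its brightest probe (A_55_P1976224, chr12:112907787-112907846, mm9, minus strand) was well above background on all 26 arrays. WT arrays of the total line were between 9.61 and 10.33 (median 10.05) and total KO arrays between 11.18 and 11.83 (median 11.44). The groups did not overlap, which held for 14.7% of gene names in this comparison. Ckb was 2.68-fold higher in total KO (log2 difference 1.42, SE 0.11, limma adjusted p = 2.1e-10). In the ChREBPβ line, WT arrays were between 10.65 and 11.33 (median 11.16), and the ChREBPβ KO arrays were at 11.29, 11.58, 11.26, 11.22 and 11.25. These groups overlapped, and the highest WT array was above 4 of the 5 KO arrays. The ChREBPβ difference was 0.23 (SE 0.12, 95% interval -0.019 to 0.48, adjusted p = 0.67). The second Ckb probe (A_52_P385606) gave 1.50 in total KO (SE 0.12) and 0.30 in ChREBPβ KO (SE 0.13), with the same calls (the ChREBPβ value had an adjusted p of 0.56 in limma and an unadjusted p of 0.026).

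The 250 bases before the Ckb and Gamt start sites are printed here because only these members had total KO arrays fully apart from their WT arrays, and ChREBP acts through E-box-like sequences. Sequences are from RefSeq (GRCm38.p6), where 7 of the 9 members had an entry. Ckb is chr12:111672339-111672588 and Gamt chr10:80261013-80261262, both on the minus strand and read 5′ to 3′. Capitals mark TATAAA in Ckb and the reverse complement of GGGCGG in Gamt.
Ckb: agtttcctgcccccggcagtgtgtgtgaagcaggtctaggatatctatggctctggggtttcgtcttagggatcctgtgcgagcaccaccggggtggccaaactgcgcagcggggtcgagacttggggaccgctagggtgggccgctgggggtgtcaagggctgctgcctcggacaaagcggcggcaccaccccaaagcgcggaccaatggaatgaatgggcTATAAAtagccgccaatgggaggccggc
Gamt: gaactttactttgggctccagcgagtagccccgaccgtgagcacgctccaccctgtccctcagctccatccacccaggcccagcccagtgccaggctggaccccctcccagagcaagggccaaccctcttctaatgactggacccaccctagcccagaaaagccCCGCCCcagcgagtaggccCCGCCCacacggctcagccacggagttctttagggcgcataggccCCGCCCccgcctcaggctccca
The motifs were searched on both strands of the 250 bases. The E-box CACGTG was in 0 of the 9 member promoters, since Ckmt1 and Alpl had 2 entries each, and in 6.02% of the 32851 promoters in the table. The looser half-site CACGNG, which includes every CACGTG, was in 1 promoter each of Ckmt1, Gatm and Ryr2 and in 23.5% of all promoters. A pair of such half-sites on the same strand, 5 bases apart, was in 0 of the member promoters and in 0.0457% of all. This is the spacing of a carbohydrate response element, but pairs with the second half-site inverted were not searched, so the element itself was not counted. TATAAA was in 3 of the member promoters (Ckb, and 1 each of Ckmt1 and Alpl) and in 12.4% of all, and GGGCGG in 3 (Gamt, Ckmt2 and 1 of Alpl) and in 32.7% of all. Slc6a8 and Atp2a2 had no entry.

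Ckmt1 encodes the ubiquitous mitochondrial creatine kinase, which sits between the mitochondrial membranes and couples ATP export to phosphocreatine. On probe A_55_P2072656 (chr2:121189414-121189473, mm9), WT arrays of the total line were between 10.61 and 11.23 (median 10.96) and total KO arrays between 10.84 and 11.25 (median 11.10). The groups overlapped over most of their range, and the difference was 0.10 (SE 0.08, 95% interval -0.076 to 0.27, adjusted p = 0.36). In the ChREBPβ line, WT arrays were between 10.47 and 10.76 (median 10.61) and KO arrays at 10.63, 10.56, 10.61, 10.60 and 10.63. The KO arrays lay inside the WT range, with a difference of -0.014 (SE 0.09). The other Ckmt1 probe, A_51_P495049, was above background on 4, 5, 6 and 4 arrays of the 4 groups and was not tested.

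Ckmt2 encodes the sarcomeric mitochondrial creatine kinase, the form of striated muscle that has also been linked to creatine cycling in beige fat. Its single probe (A_51_P165293, chr13:91993242-91995390, mm9, minus strand) was well above background on 2 of 7 WT arrays of the total line and 6 of 7 total KO arrays. In the ChREBPβ line it was so on 5 of 7 WT arrays and 4 of 5 KO arrays. The probe passed the filter only through KO groups, where its mean was higher, so its KO differences are not independent of the filter. WT arrays of the total line were between 4.07 and 8.56 (median 4.25) and total KO arrays between 4.29 and 10.33 (median 7.85). The ranges overlapped, with total KO replicates 1, 2 and 7 (8.70, 8.62 and 10.33) above the highest WT array. The difference was 2.26 (SE 0.93, 95% interval 0.32 to 4.19, adjusted p = 0.051), not past the threshold. It passed when WT replicate 1 (2.82, adjusted p = 0.013), WT replicate 5 (2.50, 0.040), total KO replicate 4 (2.77, 0.017) or total KO replicate 5 (2.59, 0.032) was left out. These passes rest on the same filter and are no support for a rise, and Ckmt2 was not called without the filter. In the ChREBPβ line, WT arrays were between 4.08 and 8.0 (median 5.55) and KO arrays at 6.27, 5.44, 9.69, 4.35 and 6.49. The spread within each group was wider than for any other member, with SDs between 1.61 and 2.09.

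Gatm encodes arginine:glycine amidinotransferase, the mitochondrial enzyme of the first and rate-limiting step of creatine synthesis. On the brightest probe (A_51_P461319, chr2:122420814-122420873, mm9, minus strand), WT arrays of the total line were between 6.73 and 7.92 (median 7.74) and total KO arrays between 7.12 and 8.44 (median 7.91). The groups overlapped, and the difference of 0.38 did not pass (SE 0.24, adjusted p = 0.19). In the ChREBPβ line, WT arrays were between 7.37 and 9.26 (median 8.61), and KO arrays were at 8.11, 8.08, 8.81, 8.06 and 8.33. The KO arrays lay inside the WT range, with a difference of -0.27 (SE 0.26, 95% interval -0.81 to 0.27, adjusted p = 0.89). The second probe gave 0.39 in total KO and -0.082 in ChREBPβ KO, neither called.

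Gamt encodes guanidinoacetate methyltransferase, which completes creatine synthesis. On its single probe (A_51_P484869, chr10:79720991-79721047, mm9, minus strand), WT arrays of the total line were between 10.67 and 11.18 (median 11.02) and total KO arrays between 11.41 and 11.90 (median 11.69). The groups did not overlap, as for 14.7% of gene names in this comparison. Gamt was 1.67-fold higher in total KO (log2 difference 0.74, SE 0.09, limma adjusted p = 6.0e-07). In the ChREBPβ line, WT arrays were between 12.13 and 12.66 (median 12.22) and KO arrays at 12.39, 12.65, 12.52, 12.61 and 12.39. All KO arrays lay inside the WT range, and the difference was 0.17 (SE 0.10, 95% interval -0.043 to 0.37, adjusted p = 0.75). Each array of the ChREBPβ line, WT or KO, was above each array of the total line.

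Slc6a8 encodes the creatine transporter of the plasma membrane. On the brightest probe (A_55_P2000553, chrX:70927775-70927834, mm9), WT arrays of the total line were between 10.30 and 10.81 (median 10.54) and total KO arrays between 10.23 and 10.73 (median 10.49). The groups overlapped, with a difference of -0.018 (SE 0.09, 95% interval -0.21 to 0.18, adjusted p = 0.89). WT arrays of the ChREBPβ line were between 11.11 and 11.63 (median 11.30) and ChREBPβ KO arrays at 11.15, 11.15, 11.53, 11.21 and 11.46. Genotypes overlapped in this line too (-0.027, SE 0.10). The second probe gave -0.19 in total KO (SE 0.08, adjusted p = 0.066) and 0.022 in ChREBPβ KO.

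Alpl encodes tissue-nonspecific alkaline phosphatase, which hydrolyses phosphocreatine in mitochondria of thermogenic fat. On the brightest probe (A_51_P494125, chr4:137297658-137297716, mm9, minus strand), WT arrays of the total line were between 8.31 and 9.06 (median 8.66) and total KO arrays between 8.38 and 8.97 (median 8.61). In the ChREBPβ line, WT arrays were between 8.42 and 9.11 (median 8.85) and KO arrays at 9.26, 9.06, 8.52, 9.11 and 8.77. All groups overlapped. The differences were -0.030 in total KO (SE 0.13, adjusted p = 0.87) and 0.14 in ChREBPβ KO (SE 0.15, adjusted p = 0.90), and the second probe gave 0.092 and 0.082.

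Atp2a2 encodes SERCA2, the calcium pump of the endoplasmic reticulum in adipocytes and the heart. On the brightest of its 3 probes (A_52_P569001, chr5:122906850-122906909, mm9, minus strand), WT arrays of the total line were between 10.52 and 11.10 (median 10.88) and total KO arrays between 11.06 and 11.28 (median 11.16). The groups touched at a single WT array that was above the lowest KO array. Atp2a2 was 1.25-fold higher in total KO (log2 difference 0.32, SE 0.08, limma adjusted p = 0.0019), and the other probes gave 0.35 and 0.36, both called. WT arrays of the ChREBPβ line were between 10.91 and 11.36 (median 11.08) and KO arrays at 11.40, 11.14, 11.15, 11.37 and 11.08. These groups overlapped, and the ChREBPβ difference was 0.12 (SE 0.09, 95% interval -0.073 to 0.30, adjusted p = 0.83).

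Ryr2 encodes a ryanodine receptor, a calcium release channel best known from cardiac muscle. It was faint: its brightest probe (A_55_P2737124, chr13:11792652-11793104, mm9, minus strand) was well above background on 7 of 7 WT and 4 of 7 KO arrays of the total line, and on 6 of 7 WT and 4 of 5 KO arrays of the ChREBPβ line. WT arrays of the total line were between 4.77 and 5.20 (median 5.05) and total KO arrays between 4.39 and 4.88 (median 4.77). The groups overlapped, and Ryr2 fell in total KO by 0.35 on the log2 scale (SE 0.14, limma adjusted p = 0.047). This call was lost when any 1 of WT replicates 1, 5, 6, 7 and 8 or total KO replicates 2, 3, 4, 5 and 7 was left out, with values between -0.36 and -0.30 and adjusted p between 0.053 and 0.10. It was also lost with normexp background correction (-0.14, adjusted p = 0.094), without the filter on dim probes (-0.36, 0.053), with the wash batch as a block (-0.36, 0.055) and with the replicate block (-0.35, 0.057), while the processed signal gave -1.10 (0.021). ChREBPβ KO arrays were at 5.15, 5.98, 4.51, 5.17 and 5.43 and their WT arrays between 4.71 and 5.19 (median 4.92), a difference of 0.29 (SE 0.16, adjusted p = 0.68). Of the other Ryr2 probes, A_52_P10205 was above background on 0 arrays and A_52_P440709 on 2, 0, 2 and 3 arrays of the 4 groups, and neither was tested.

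Whether the KO effects differed between the lines was tested as an interaction, given as the effect in the ChREBPβ line less that in the total line, for which 23.1% of gene names were called. It passed for 3 members. Ckb differed by -1.19 (SE 0.16, limma adjusted p = 1.3e-05), so its rise was smaller in the ChREBPβ KO. Gamt differed by -0.57 (SE 0.14, adjusted p = 0.0042) in the same sense. Ryr2 differed by 0.64 (SE 0.21, adjusted p = 0.030). Its probe had passed the filter on dim probes only through groups where it was brighter than in total KO. The Ryr2 interaction is therefore not independent of the filter. The Ryr2 call was lost without ChREBPβ KO replicate 2, the highest array (0.46, adjusted p = 0.064), without ChREBPβ KO replicate 6 (0.60, 0.058) and without total KO replicate 7 (0.59, 0.050). Atp2a2 gave -0.21 on its brightest probe (adjusted p = 0.22), while its probe A_51_P451075 gave -0.37 (adjusted p = 0.019), so its probes differed in the call. Gatm gave -0.66 (adjusted p = 0.19), and passed without ChREBPβ WT replicate 8 (-0.85, adjusted p = 0.046). The lines were bred apart, so an effect of genotype that differs between lines and one that differs between isoforms cannot be told apart.

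**Figure D2:**
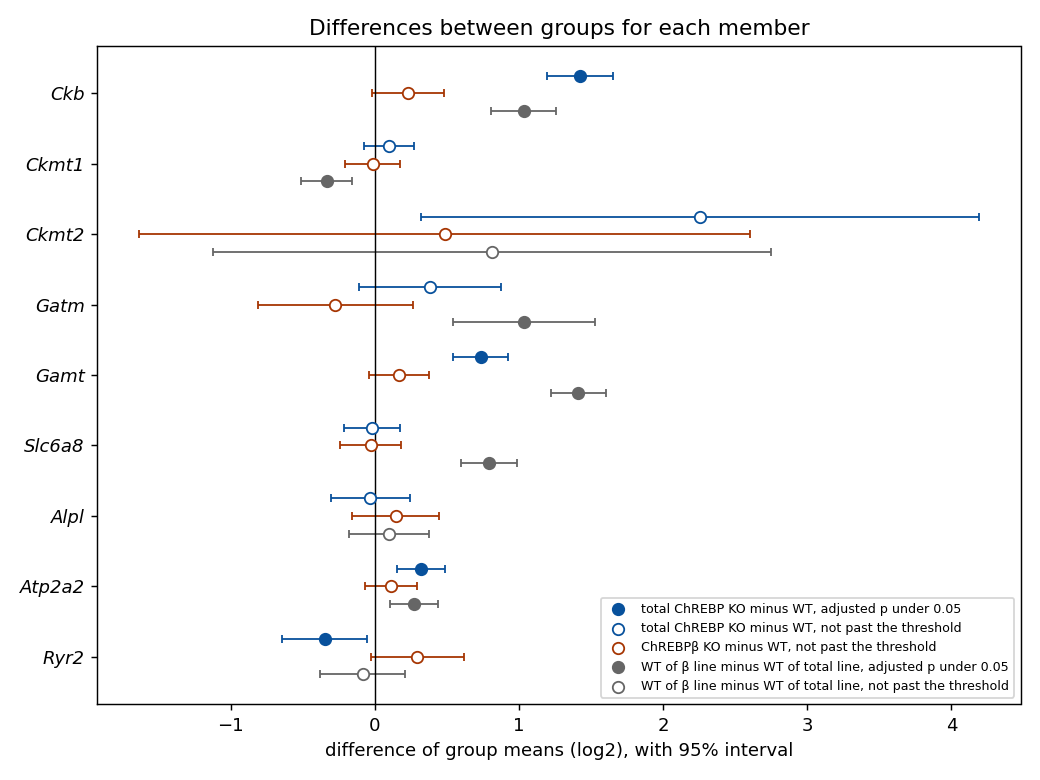
Differences of group means on the log2 scale (x axis) for each member on its brightest probe, with 95% intervals. Filled points passed an adjusted p of 0.05 in limma. Ckb has the largest called rise in total KO (1.42) and Gamt the largest difference between the WT groups (1.41), while no ChREBPβ difference passed.

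The WT groups of both lines had the same labelled genotype and refeeding, and they were compared because each serves as a control. Here 6 of 9 members passed, against a background of 45.6%, and the median over the members was 0.79, against 0.03 over all gene names. In WT of the ChREBPβ line, Gamt was higher by 1.41 (SE 0.09, limma adjusted p = 2.7e-10), Ckb by 1.03 (SE 0.11, 7.5e-08), Gatm by 1.04 (SE 0.24, 8.9e-04), Slc6a8 by 0.79 (SE 0.09, 2.8e-07) and Atp2a2 by 0.27 (SE 0.08, 0.0071). Ckmt1 was lower by 0.33 (-0.33, SE 0.08, adjusted p = 0.0021). On the brightest probes, the arrays of both WT groups did not overlap for Ckb, Gamt and Slc6a8, as for 17% of gene names. On the second Slc6a8 probe they did overlap (0.51, limma adjusted p = 2.8e-05). For Atp2a2, probe A_52_P168097 was not called (0.23, adjusted p = 0.052), while A_51_P451075 was (0.31, 0.0015). The second probes of Ckb (1.00) and Gatm (0.82) were called too. The 2 enzymes of creatine synthesis and the creatine transporter were therefore all higher in WT of the ChREBPβ line. For Ckb, Gamt and Atp2a2, WT of the total line was the group with the lowest mean of the 4. No member had fully separated KO and WT arrays in the ChREBPβ line, where 0.378% of gene names did.

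Acta1, the actin of skeletal muscle, was used to follow muscle fibres in the samples. It was between 6.70 and 12.62 (median 7.34) in WT of the total line, between 7.53 and 15.02 (median 11.61) in total KO, between 8.11 and 12.70 (median 10.62) in WT of the ChREBPβ line, and at 10.36, 11.48, 13.88, 10.33 and 11.44 in ChREBPβ KO. In WT of the total line 5 of 7 arrays were at or below 7.38, under every total KO array. Acta1 was 2.76 higher in total KO (SE 1.03, limma adjusted p = 0.031) and 0.91 higher in ChREBPβ KO (SE 1.13, adjusted p = 0.93). Of the 11 skeletal muscle genes 4 rose in total KO, Acta1 among them. Over the array 6660 of 25407 gene names were called higher there, so this count was not far from the background. The mean of the list ranged from 6.26 to 12.21 (total line, WT), 6.56 to 12.95 (total KO), 6.39 to 12.18 (ChREBPβ line, WT) and 6.79 to 12.69 (ChREBPβ KO). Of 5 tested slow-fibre genes 0 rose or fell in either KO.

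The slope of each member on Acta1 within groups was called for Ckmt2 alone of the 9 members, at 0.84 log2 units per log2 unit of Acta1 (SE 0.06, limma adjusted p = 2.4e-09). Slopes were called for 0.579% of gene names, 147 in all, and all of these were positive. That count includes Acta1 itself, whose slope is 1 by construction. With Acta1 in the fit, the total KO difference of Ckmt2 was -0.079 (adjusted p = 0.89), against 2.26 without it. The other slopes were small, from -0.018 for Ckmt1 to 0.037 for Slc6a8, with SEs up to 0.047. With Acta1 in the fit, Ckb was still 1.34 higher in total KO (adjusted p = 9.6e-09), Gamt 0.68 (1.7e-05) and Atp2a2 0.31 (0.0086). Ryr2 was -0.34 and no longer past the threshold (adjusted p = 0.11).

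**Figure D3:**
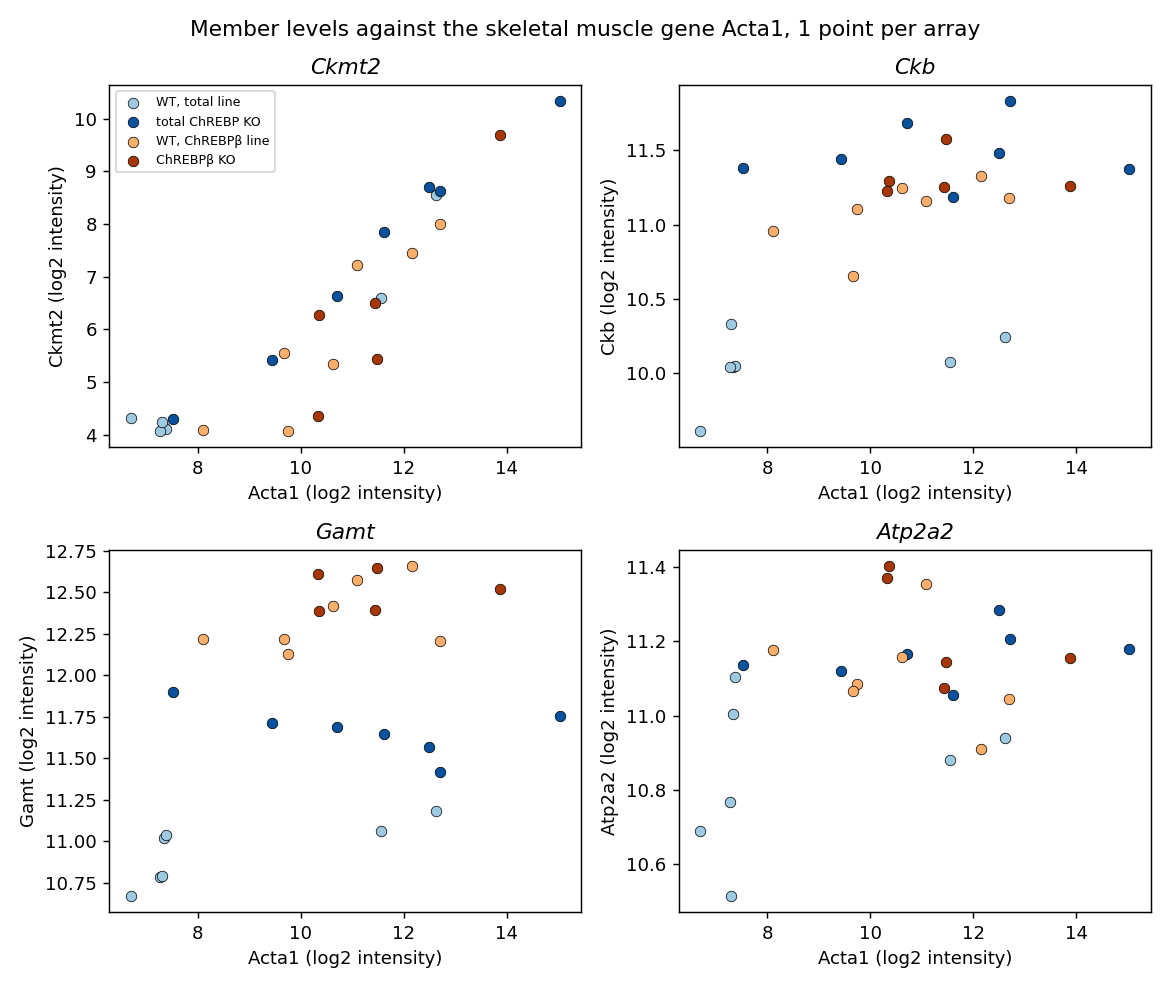
Log2 intensity of Ckmt2, Ckb, Gamt and Atp2a2 (y axes) against Acta1 on the same array (x axes), with 1 point per array coloured by group. Ckmt2 rises with Acta1 in every group (slope 0.84), and Ckb and Gamt separate total KO from its WT at low and high Acta1.

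Markers of other cells also moved with these comparisons. The background was 6660 gene names called higher and 4996 lower of 25407 in total KO. Between the WT groups it was 6712 higher and 4874 lower in the ChREBPβ line. All 12 lymphocyte genes fell in total KO, and the mean of the list ranged from 11.25 to 12.93 (total line, WT), 8.32 to 11.61 (total KO), 7.63 to 8.52 (ChREBPβ line, WT) and 7.64 to 9.24 (ChREBPβ KO). The 3 tested genes of lymph node stroma fell too. Of 10 adipocyte genes, 9 were called higher in total KO. Among these, Cfd was at 18.70 in WT (SD 6.4e-05) and 18.84 in total KO (SD 4.9e-05). Values so alike are set by rank in quantile normalization, so its rise is no measured change of level. The mean of that list was between 16.07 and 16.30 in total KO, against 15.29 to 15.88 in its WT. In the ChREBPβ line it was between 15.94 and 16.13 (WT) and between 15.81 and 16.28 (KO). In the WT comparison, all 12 lymphocyte genes were lower in WT of the ChREBPβ line and 6 of 10 adipocyte genes higher. All 5 stromal genes (Col1a1, Col3a1, Pdgfra, Dcn and Lum) were higher there, with a median of 0.98, and the mean of that list ranged from 12.58 to 13.83 (total line, WT), 13.15 to 13.79 (total KO), 14.00 to 14.48 (ChREBPβ line, WT) and 13.55 to 14.83 (ChREBPβ KO). Of 5 macrophage genes 4 were higher, with a median of 1.07, and the mean ranged from 10.53 to 12.22, 10.50 to 11.19, 11.94 to 12.92 and 11.07 to 13.01 in the same order of groups. In total KO 1 of 5 stromal genes rose and 1 of 5 macrophage genes fell. Of 4 neutrophil genes 0 were called in total KO, and 1 was higher and 1 lower in the WT comparison, and of 4 tested epithelial genes 0 were called in either. Of the 7 thermogenic genes, 4 fell in total KO, Ucp1 among them, while Dio2, which activates thyroid hormone, rose (1.46, limma adjusted p = 0.011), and all 7 were lower in WT of the ChREBPβ line than in WT of the total line. In ChREBPβ KO 0 genes of these lists were called. In bulk tissue, a change in the share of a cell type and a change in RNA per cell cannot be told apart.

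With the lymphocyte score as a covariate, Ckb remained called in total KO (1.49, adjusted p = 2.3e-07) and so did Gamt (0.60, 0.0015), while Atp2a2 (0.22, 0.20) and Ryr2 (-0.31, 0.35) did not. In the WT comparison, Ckb (1.16, 0.018) and Gamt (1.14, 0.0095) remained called with that covariate, and Slc6a8 (0.46, 0.17), Gatm (1.67, 0.067), Atp2a2 (0.069, 0.85) and Ckmt1 (-0.59, 0.066) did not. With the adipocyte score, a covariate chosen after seeing the data, Ckb gave 1.61 in total KO (1.8e-05), Gamt 0.55 (0.053), Atp2a2 -0.0035 (0.99) and Gatm 1.40 (0.033). The lymphocyte score did not overlap between the WT groups (11.25 to 12.93 in the total line, 7.63 to 8.52 in the ChREBPβ line). The adipocyte score did not overlap between total KO (16.07 to 16.30) and its WT (15.29 to 15.88). Score and group are hard to tell apart in those fits, so a lost call cannot be put down to these cells. The part of these cells in the members' differences was not tested beyond these fits.

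**Figure D4:**
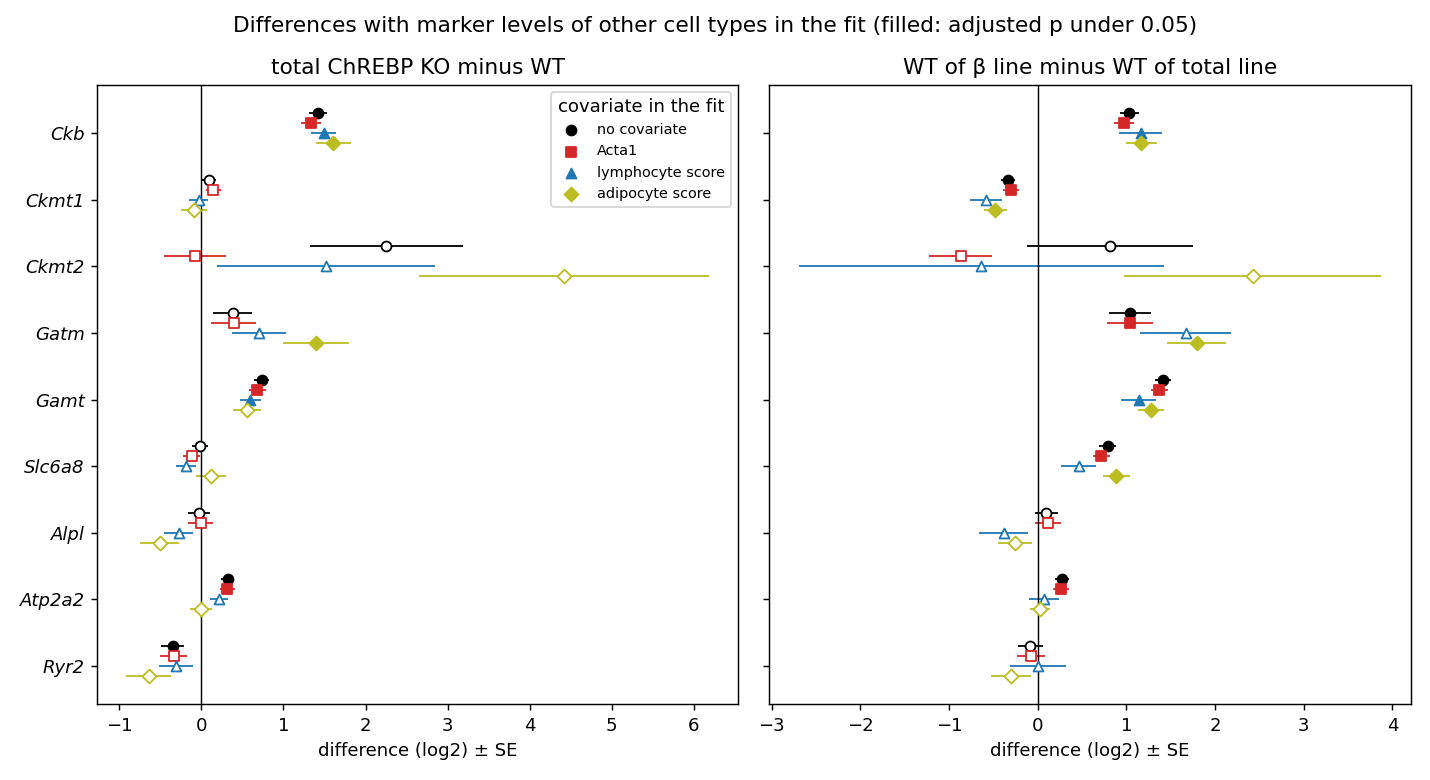
Differences on the log2 scale ± SE (x axes) for each member in total ChREBP KO (left) and between the WT groups (right), without a covariate and with Acta1 or the mean of a marker list in the fit. Filled symbols passed an adjusted p of 0.05 in limma. Ckb stays between 1.34 and 1.61 in total KO, Ckmt2 moves from 2.26 to -0.079 with Acta1, and Atp2a2 from 0.32 to -0.0035 with the adipocyte score.

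Other genes of both routes were taken from lists chosen with earlier results known. Of 8 further genes of the creatine route, 6 were tested, and 4 rose and 1 fell in total KO. The background in this comparison was 45.9% of gene names, with 6660 called higher and 4996 lower. Slc25a4, the ADP/ATP carrier of the inner mitochondrial membrane, was between 14.67 and 15.25 in WT of the total line and between 15.47 and 15.90 in total KO (0.68, SE 0.10, limma adjusted p = 6.8e-06). Ckm, the creatine kinase of muscle, was between 4.17 and 9.51 in WT and between 4.18 and 12.59 in total KO (2.61, SE 1.20, adjusted p = 0.078), and its slope on Acta1 was 1.12 (SE 0.07, adjusted p = 3.1e-11). The list's median change was 0.47 in total KO, with 4 of the 5 called genes higher, and 0.053 in ChREBPβ KO, where 0 of 6 were called.

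Of 17 further genes of the calcium route, 15 were tested, and 2 rose and 4 fell in total KO, with a median of -0.034. These 6 called genes of 15 were close to the background of 45.9%. Itpr2, an inositol trisphosphate receptor that releases calcium from the endoplasmic reticulum, was between 11.83 and 12.38 in WT of the total line and between 10.76 and 11.27 in total KO (-1.06, SE 0.10, limma adjusted p = 4.6e-09). Itpr1, of the same family, was between 11.99 and 12.28 in WT and between 11.66 and 11.87 in total KO (-0.37, SE 0.06, adjusted p = 7.2e-06). For neither gene did the KO and WT ranges meet, as for 14.7% of gene names in this comparison. Atp2a3, another SERCA pump, was between 9.13 and 10.10 in WT and between 7.96 and 9.31 in total KO (-1.02, SE 0.18, adjusted p = 8.6e-05). It was also lower in WT of the ChREBPβ line than in WT of the total line (-0.99, adjusted p = 1.0e-04). Which cells its change lies in was not tested. Atp2a3 is no gene of the naming rule and was added after its values were seen. Camk2d, a calcium-activated kinase, was between 9.59 and 9.97 in WT and between 10.01 and 10.37 in total KO (0.39, SE 0.07, adjusted p = 3.5e-05). Casq1, Ryr1 and Atp2a1, the calcium store protein, release channel and pump of fast muscle fibres, did not pass in total KO (1.58, 0.86 and 1.53) but had called slopes on Acta1 of 0.65 (SE 0.04), 0.60 (SE 0.06) and 0.59 (SE 0.06). In ChREBPβ KO 0 of the 15 genes passed, with a median of 0.024. Apart from Atp2a3, the 8 pathway genes named were the ones of smallest p among 15 pathway genes that passed in a KO comparison or on the slope.

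**Figure D5:**
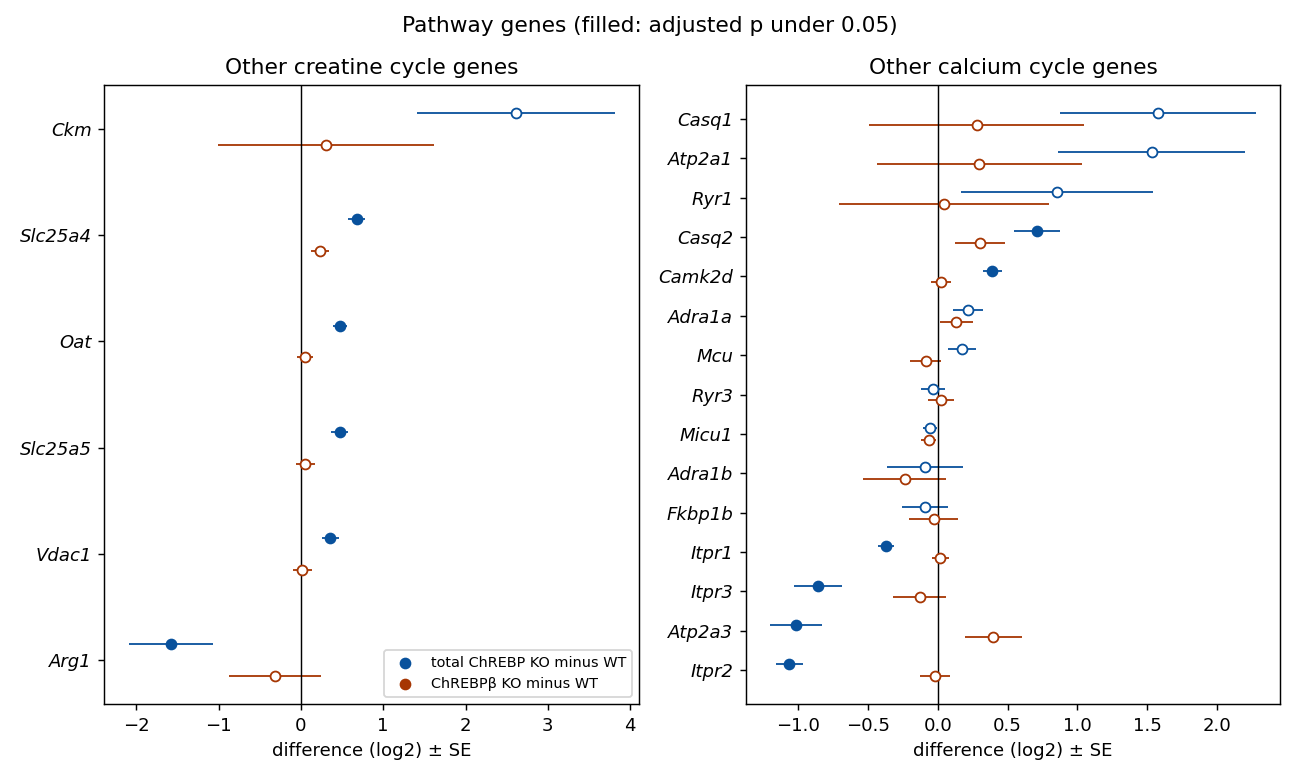
Differences on the log2 scale ± SE (x axes) for the tested pathway genes of the creatine route (left) and the calcium route (right), in total ChREBP KO and in ChREBPβ KO. Filled points passed an adjusted p of 0.05 in limma. The called genes are all in total KO, with Slc25a4 at 0.68 and Itpr2 at -1.06.

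The genes whose levels were most like each member were ranked by Pearson's r across all 26 arrays among 17303 gene names, as a description with no test, since the arrays share group differences. Ckmt2 was nearest to Myot, Neb and Mylpf (r = 0.99, 0.99 and 0.98), which encode proteins of the muscle sarcomere, and the r values were as high after subtraction of group means (0.99, 0.99 and 0.98). Gatm was nearest to Plekha4, Mal and Cmtm5 (r = 0.93, 0.92 and 0.92, and 0.91, 0.92 and 0.92 within groups). Ckb was nearest to Efs, Pcdhga9 and Kif13b (r = 0.95, 0.94 and 0.94), and within groups these fell to 0.45, 0.40 and 0.48. Gamt was nearest to Gstt3, Exoc6b and Slit3 (r = 0.96, 0.96 and 0.96), and within groups these were 0.40, 0.49 and 0.49. The likeness of Ckb and Gamt to these genes was thus mostly between groups.

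Slc6a8 was nearest to C1qtnf1, Dpep1 and Fut10 (r = 0.96, 0.95 and 0.95, and 0.77, 0.74 and 0.79 within groups). Ckmt1 was nearest to Nrsn2, Shc2 and Gm4736 (r = 0.92, 0.91 and 0.91), and Atp2a2 to Armc6, Mfsd8 and Slx4ip (r = 0.93, 0.93 and 0.92). Alpl was nearest to Ccdc125, Svip and Gm33786 (r = 0.88, 0.81 and 0.79). The faint Ryr2 had the weakest likeness of the 9, to Gm2065, Tubg2 and Map7 (r = 0.79, 0.75 and 0.72).

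The labels give 4 wash batches, and every batch held arrays of at least 3 groups. Within the 4 batches, the total KO difference of Ckb was between 1.22 and 1.68, that of Gamt between 0.32 and 0.95, that of Atp2a2 between 0.12 and 0.51 and that of Ryr2 between -0.70 and -0.16, each from 1 to 2 arrays per group. The direction was the same in all 4 batches for these members. The difference between WT groups was positive in all 4 batches for Gamt (1.18 to 1.55), Ckb (0.79 to 1.40), Slc6a8 (0.69 to 0.94), Gatm (0.60 to 1.88) and Atp2a2 (0.072 to 0.42), and negative in all 4 for Ckmt1 (-0.62 to -0.20). Ckmt2 ranged from 0.61 to 3.71 in total KO.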

How the data were processed

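The authors scanned 1 array per mouse and extracted spots with Agilent Feature Extraction 10.10.1.1, and the deposited scanner files hold intensity values on a linear scale with quality calls. The deposited series table holds log2 values that the authors filtered and quantile normalized in R, and it was used here only as an alternative. It correlated with the recomputed values at r of at least 0.99996 on each array but lacked the tested Ryr2 probe.

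Main values were recomputed from the median spot signal with the study's steps: log2, quantile normalization, and the median of replicate spots. A probe was kept if its spots met the scanner's calls (found, positive with significance, clearly brighter than background) on 21 or more of the 26 arrays, or on 75% of the arrays of 1 group. The brightest probes of Ckmt2, Gatm, Alpl and Ryr2 passed by a group alone. Spots with outlier calls were set to missing. A gene was represented by its probe of highest mean intensity.

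One model with 4 group means was fitted to all probes with limma 3.58.1 in R 4.3.3 (22 residual degrees of freedom), and p-values were adjusted by Benjamini-Hochberg over all 38832 probes. The slope on Acta1 was fitted with the same group means. The fit was tested on simulated data. Named pathway genes were the 8 of smallest p among those called in a KO comparison or on the slope, and 3 most similar genes were named per member. Members, gene lists and tests were chosen with earlier results of these data known. Probe positions are those of the array annotation (mm9), and exons were not annotated here. The number of arrays limits the precision, and p-values measure the spread between mice. A marker list and the fit with its score are not reported here.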

Additional observations from a re-analysis of the deposited data

Results flagged for a closer look

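In 3 of 36 sets of 1 member in 1 group, a single array stood apart from the others by Dixon's criterion at the 95% level, where chance alone gives about 1 in 20 sets. For Ckb, WT replicate 6 of the total line was lowest, at 9.61 against 10.04 for the next array (0.595 of the group's range), and ChREBPβ KO replicate 2 was highest, at 11.58 against 11.29 (0.812). For Gatm, ChREBPβ WT replicate 8 was lowest, at 7.37 against 8.52 (0.609).

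The effects of both KOs differed by the interaction test for 3 members. The ChREBPβ effect minus the total effect was -1.19 for Ckb, -0.57 for Gamt and 0.64 for Ryr2. For Ryr2 the value is not independent of the filter, which its probe passed only through groups where it was brighter.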

How the results depend on the processing

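Apart from leaving out arrays, 14 alternatives were run for each KO and WT comparison, 13 for the interaction and 7 for the slope. Ckb was called in 14 of 14 in total KO (1.29 to 1.61), 13 of 13 on the interaction and 14 of 14 between WT groups. Gamt was called in 13 of 14, 10 of 13 and 14 of 14, and Atp2a2 in 11 of 14 in total KO. Ryr2 was called in 5 of 13 in total KO and 8 of 12 on the interaction, Ckmt2 in 5 of 14 in total KO and in 7 of 7 on the slope, and 0 members were called in ChREBPβ KO under any alternative. The sign of Atp2a2 in total KO turned with the adipocyte score (-0.0035), and 32 other values that were uncalled both ways changed sign.

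With the lymphocyte score in the fit the members called fell to 2 in total KO, 1 on the interaction and 2 between WT groups, and the same counts (2, 1 and 2) came with Acta1 and that score together. With the adipocyte score 2 were called in total KO. Over all probes, 17691 were called in total KO, 8714 on the interaction and 17552 between WT groups, against 5824, 2341 and 1291 with the lymphocyte score, 5676, 2348 and 1421 with Acta1 and that score, and 2946, 2158 and 9390 with the adipocyte score. In ChREBPβ KO 14 probes were called, against 59 with array weights, 23 with the lymphocyte score, 22 with the adipocyte score, 9 with Acta1, 9 with the processed signal, 5 with the replicate block and 2 with only the groups compared. The cause was not tested.

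With 1 array left out, 3 to 4 members were called in total KO, 0 in ChREBPβ KO, 2 to 4 on the interaction, 6 between WT groups and 1 on the slope. Same-numbered arrays of a line correlated between -0.36 and 0.51 in their deviations from group means. The labels do not say whether the numbers pair the mice. These values cannot decide it, since no differently numbered arrays were set beside them. With the replicate block, 3 members were called in total KO, 0 in ChREBPβ KO, 2 on the interaction and 6 between WT groups, and 15426, 5, 5665 and 16507 probes in all. Low signal limits Ryr2 and Ckmt2: with normexp background correction the total KO values were -0.14 and 1.50, and with the processed signal -1.10 and 3.96.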
